A study of Mus musculus with 15 samples.

Results

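The 33 genes described here copy and mend DNA: they license and fire replication origins, make up the polymerases and their clamp, supply deoxynucleotides, and carry out recombination, mismatch repair and uracil repair. They were selected by gene name, and every array probe carrying one of the 33 names was read. This gave 41 probes of the 55681 probes that are not controls, for 33 of the 34832 gene names on the array; 27 genes had 1 probe, 4 had 2 and 2 had 3. Where a gene had more than 1 probe, it was represented by the one with the greatest average level across the 15 arrays. The others are given beside it for some of the comparisons.

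RNA was measured on 15 one-colour Agilent arrays, 1 per sample, in primary mouse cells exposed for 24 h either to 1 mM β-aminopropionitrile (BAPN, an inhibitor of the lysyl oxidases that cross-link collagen and elastin) or to phosphate-buffered saline as vehicle. The groups were alveolar type II (ATII) epithelial cells with BAPN (4 arrays), ATII cells with vehicle (4 arrays), lung fibroblasts with BAPN (3 arrays) and lung fibroblasts with vehicle (4 arrays). The ATII cells formed a monolayer over 3 days of air-liquid interface culture, while the fibroblasts had been passaged at least 3 times and kept in starvation medium for 24 h before exposure, so that cell type, culture form, passage and starvation cannot be told apart. The labels give no strain, sex or age, and do not say whether replicates are separate animals or cultures, so each p-value measures spread between arrays that may be technical only. The replicate numbers of the labels are kept, and the ATII BAPN array labelled as a replacement is called replicate 5.

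Before a cell divides, the MCM2-7 helicase is loaded on replication origins in G1 with the help of CDC6 and CDT1, and is switched on in S phase by the DBF4-dependent kinase, GINS and MCM10. Polymerases then copy each strand on the PCNA ring, which the replication factor C complex loads, while ribonucleotide reductase, thymidylate synthase and thymidine kinase supply the precursors. Many of these genes are transcribed at the start of S phase under the control of E2F factors, so that their summed RNA in a culture is widely read as a sign of cycling cells.

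RefSeq promoter windows (build GRCm38.p6, 250 bases before to 50 bases after each annotated start) were held for 28 of the 33 genes. The 4 forms TTTCCCGC, TTTCGCGC, TTTGCCGC and TTTGGCGC, searched on both strands with overlaps allowed, occurred in the windows of 13 of these 28 genes, and in 42.4% of their 33 windows against 2.26% of all 32851 windows. The CCAAT box, searched the same way, occurred in 48.5% of the members' windows and in 37.4% of all windows, and TTTGAA, the core of the cell cycle homology region of late cell cycle genes, in 9.09% and 17.9%. A match is a string of letters and not a bound site. The stretches of 250 bases before the start are shown for 4 genes with 2 or more matches, to show where the letters lie; capitals mark the E2F forms.
Mcm6, chr1:128359706-128359955, minus strand: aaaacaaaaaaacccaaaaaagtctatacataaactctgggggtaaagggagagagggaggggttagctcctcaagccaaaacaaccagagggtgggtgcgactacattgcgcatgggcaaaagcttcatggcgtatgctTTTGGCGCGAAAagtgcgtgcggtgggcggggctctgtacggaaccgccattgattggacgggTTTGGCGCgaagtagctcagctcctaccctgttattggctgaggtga
Mcm5, chr8:75109259-75109508, plus strand: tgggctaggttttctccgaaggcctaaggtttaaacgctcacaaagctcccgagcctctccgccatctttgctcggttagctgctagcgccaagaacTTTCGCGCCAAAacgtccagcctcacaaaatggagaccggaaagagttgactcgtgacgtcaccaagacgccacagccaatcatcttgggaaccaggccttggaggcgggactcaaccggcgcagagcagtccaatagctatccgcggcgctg
Mcm7, chr5:138171884-138172133, minus strand: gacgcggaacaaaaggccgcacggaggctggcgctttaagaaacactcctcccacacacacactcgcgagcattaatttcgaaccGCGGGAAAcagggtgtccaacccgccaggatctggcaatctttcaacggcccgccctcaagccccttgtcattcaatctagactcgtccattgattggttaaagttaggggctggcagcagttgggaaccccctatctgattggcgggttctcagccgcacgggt
Rfc3, chr5:151651209-151651458, minus strand: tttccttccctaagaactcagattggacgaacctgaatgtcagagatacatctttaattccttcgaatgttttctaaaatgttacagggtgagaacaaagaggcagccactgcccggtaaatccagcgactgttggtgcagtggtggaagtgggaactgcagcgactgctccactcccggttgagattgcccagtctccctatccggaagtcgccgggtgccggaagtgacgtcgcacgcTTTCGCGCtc
In Mcm6 the first form began 110 bases before the start and overlapped the next, on the other strand, at 106 bases, and the third began at 47 bases. The 2 forms of Mcm5 also overlapped (153 and 149 bases before the start). Mcm7 had 1 form at 165 bases and Rfc3 1 at 10 bases before the start, each with a further form inside the transcribed part. The 2 forms of Mcm3 lay 19 and 38 bases after its start and are not shown.

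The array probes that carry the comparisons below are 60 bases long. Those of Slbp, Dbf4 and Brca1 are given because the results turn on single probes, and because Slbp was read by a pair of them that can be set side by side. Positions are on mouse build mm9, per the file headers and the probe annotation in the files, and the Brca1 position spans 4037 bases of genome for 60 bases of RNA.
Slbp, brighter probe, chr5:33984551-33984610, minus strand: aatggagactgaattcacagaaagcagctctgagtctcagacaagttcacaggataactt
Slbp, dimmer probe, chr5:33988150-33988209, minus strand: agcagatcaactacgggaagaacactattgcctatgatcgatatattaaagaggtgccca
Dbf4, chr5:8397489-8397548, minus strand: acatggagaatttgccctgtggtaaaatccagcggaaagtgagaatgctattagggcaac
Brca1, chr11:101359283-101363319, minus strand: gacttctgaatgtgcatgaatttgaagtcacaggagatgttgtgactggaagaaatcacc

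Levels are given as log2 of the processed intensity minus the 75th percentile of the same array, so that 0 is a probe brighter than 75% of probes; this is called the normalized log2 level. Of the 41 probes, 38 were well above background on all 15 arrays and 1, for Pole, on none. The probes standing for 32 of the 33 genes passed on every array; Brca1 passed on 11 arrays. All 33 were therefore tested in every comparison, and no member was lost to the filter on dim probes. Of the 33 probes 29 were brighter than the 75th percentile, against 23.4% of all probes, and the plot of levels by array shows each gene around its own mean.

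**Figure D1:**
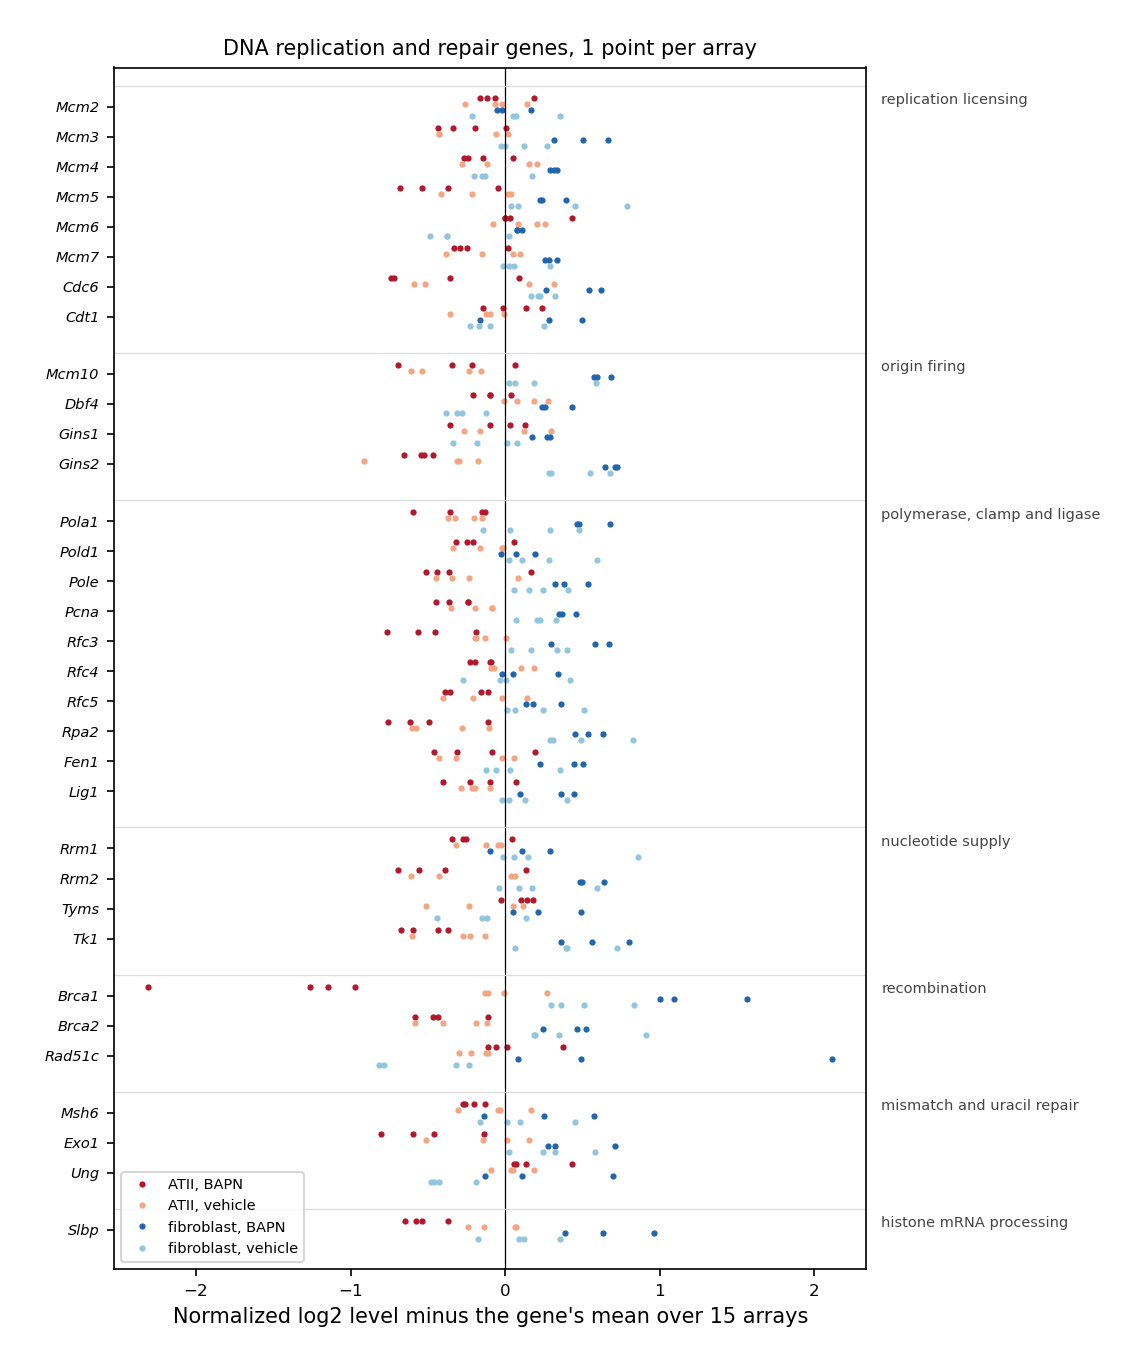
Normalized log2 level of each of the 33 genes on each of the 15 arrays, minus the mean of that gene over the arrays; each point is 1 array, colours are the 4 groups, and genes are ordered by role. The fibroblast BAPN points lie to the right for most genes, Rad51c has 1 fibroblast BAPN array far above the rest, and the 4 ATII BAPN values of Brca1 were not well above background.

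The share of spots well above background ran from 65.2% to 71.2% between arrays, and no spot was saturated. The labelled cell types could be told apart by their markers. With vehicle, 9 of the 10 ATII markers tested, out of 12 listed, were higher in ATII cells, where 14.7% of all probes were. On single fibroblast vehicle arrays 4 to 7 of the 12 were above background. Others entered the test through the ATII arrays, so the count is set in part by the filter. Sftpc was at 0.93 in ATII cells and not well above background in fibroblasts (at least 73.6-fold higher). Epcam was at 3.00 in ATII cells and -6.47 in fibroblasts, where 1 of 4 arrays was above background. All 12 fibroblast markers were above background on the ATII arrays too. With vehicle, 6 of the 12 were lower in ATII cells and 0 were higher, with a median log2 difference of -0.77. The median level of the 12 per array ran from 3.74 to 4.21 on ATII vehicle arrays and from 6.29 to 6.81 on fibroblast vehicle arrays. Col1a1, 1 of the 12, differed little, at 7.63 in ATII cells and 7.59 in fibroblasts. With vehicle, ATII cells had lower levels of 10 and a higher level of 1 among 13 markers of macrophages and leukocytes. Their median level per array ran from -2.71 to -1.18 on ATII vehicle arrays and from 0.54 to 1.66 on fibroblast vehicle arrays, with C1qc at -6.48 in ATII cells and 0.79 in fibroblasts. Their part in the differences below was not tested.

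With vehicle, more of the 33 genes passed the test as lower than as higher in ATII cells against fibroblasts, and 22 passed neither way. Of 33 genes, 9 were lower in ATII cells and 2 were higher (limma, adjusted p under 0.05), where 18.8% of all 39102 probes tested were lower and 14.7% higher. The median log2 difference of the 33 was -0.33, with 7 above 0 and 26 below 0, against a median of -0.15 over all probes tested, of which 36.7% were above 0. Under quantile normalization the median over all probes was -0.02, and that of the genes -0.35. In bulk RNA, fewer cycling cells and less RNA of these genes per cell cannot be told apart.

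Gins2, a subunit of the GINS complex that joins the MCM helicase, was lower in ATII cells on every array. Its levels were 1.47, 1.33, 0.73 and 1.35 on the ATII vehicle arrays, against 2.33, 1.94, 1.93 and 2.20 on the fibroblast vehicle arrays. The groups did not overlap, and Gins2 was 1.84-fold lower in ATII cells (log2 difference -0.88, SE 0.15, adjusted p = 0.000469). Rpa2, a subunit of the protein that coats single-stranded DNA, had levels of -0.03, -0.20, -0.53 and -0.50 on ATII arrays, against 0.57, 0.39, 0.37 and 0.90 on fibroblast arrays. It was 1.83-fold lower (adjusted p = 0.0011), and here too every ATII value lay below every fibroblast value. Tk1, the thymidine kinase of S phase, was at 2.47, 2.56, 2.09 and 2.42 in ATII cells and at 3.09, 3.096, 2.76 and 3.41 in fibroblasts. It was 1.63-fold lower without overlap (adjusted p = 0.0029), and its second probe gave a log2 difference of -0.90 (adjusted p = 0.000206), while the third, near background, gave -0.46 (adjusted p = 0.484).

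Brca2, a gene of recombination repair, read -0.37, -0.08, -0.55 and -0.15 in ATII cells and 0.38, 0.23, 0.22 and 0.94 in fibroblasts. The difference of -0.73 (SE 0.17) had an adjusted p of 0.00461. Pcna, the sliding clamp, also did not overlap: its levels were 4.43, 4.43, 4.16 and 4.32 in ATII cells and 4.72, 4.73, 4.59 and 4.84 in fibroblasts (1.31-fold lower, adjusted p = 0.00668). Mcm10, which helps the loaded helicase start, was 1.52-fold lower (adjusted p = 0.0151). The catalytic subunits of the 3 replicative polymerases, Pola1, Pold1 and Pole, were 1.34-fold, 1.31-fold and 1.37-fold lower with adjusted p of 0.0362, 0.0432 and 0.043. A dimmer Pole probe went the other way (log2 difference 0.43) with an adjusted p of 0.073.

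The 2 genes that were higher in ATII cells with vehicle belong to the helicase and its activation. Dbf4, the activator of the CDC7 kinase that fires origins, had levels of 0.59, 0.39, 0.30 and 0.50 in ATII cells, against 0.18, -0.0038, 0.03 and -0.07 in fibroblasts. The groups did not overlap, and Dbf4 was 1.33-fold higher (log2 difference 0.41, SE 0.10, adjusted p = 0.00599). Mcm6, a helicase subunit, had levels of 5.71, 5.76, 5.59 and 5.43 in ATII cells and of 5.13, 5.13, 5.02 and 5.53 in fibroblasts. It was 1.34-fold higher (adjusted p = 0.0275), with 1 fibroblast array above the lowest ATII array. The other MCM2-7 genes, Cdc6 and Cdt1 did not pass, with log2 differences between -0.48 for Mcm5 (adjusted p = 0.0575) and 0.07 for Mcm4. The dimmer probe of Cdc6 did pass as lower (log2 difference -0.79, adjusted p = 0.00876), against -0.39 (adjusted p = 0.209) for the brighter.

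By role with vehicle, 5 of 10 polymerase, clamp and ligase genes, 2 of 4 origin firing genes and 1 of 4 nucleotide supply genes were lower in ATII cells. So were 1 of 3 recombination genes, 0 of 8 licensing genes and 0 of 3 mismatch and uracil repair genes, where 18.8% of all probes were lower. Higher were 1 licensing and 1 origin firing gene, where 14.7% of all probes were. The roles hold few genes each, and differences between roles were not tested. The 7 calls of Gins2, Rpa2, Tk1, Brca2, Pcna, Mcm10 and Dbf4 held whichever single array was left out. Mcm6 was not called without fibroblast vehicle replicates 1, 2 or 3 or without ATII vehicle replicates 1 or 2 (adjusted p 0.0647 to 0.0826), nor Pola1 without fibroblast vehicle replicates 2 or 4 or ATII vehicle replicates 1, 3 or 4 (0.0559 to 0.101). Pold1 was not called without fibroblast vehicle replicates 2 or 4, any ATII vehicle replicate, or ATII BAPN replicates 3 or 5 (0.0504 to 0.118). Pole was not called without any 1 of 10 arrays (0.0505 to 0.123), namely fibroblast vehicle replicates 1, 2 and 4, fibroblast BAPN replicates 2 and 4, ATII vehicle replicates 2, 3 and 4, and ATII BAPN replicates 3 and 5.

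**Figure D2:**
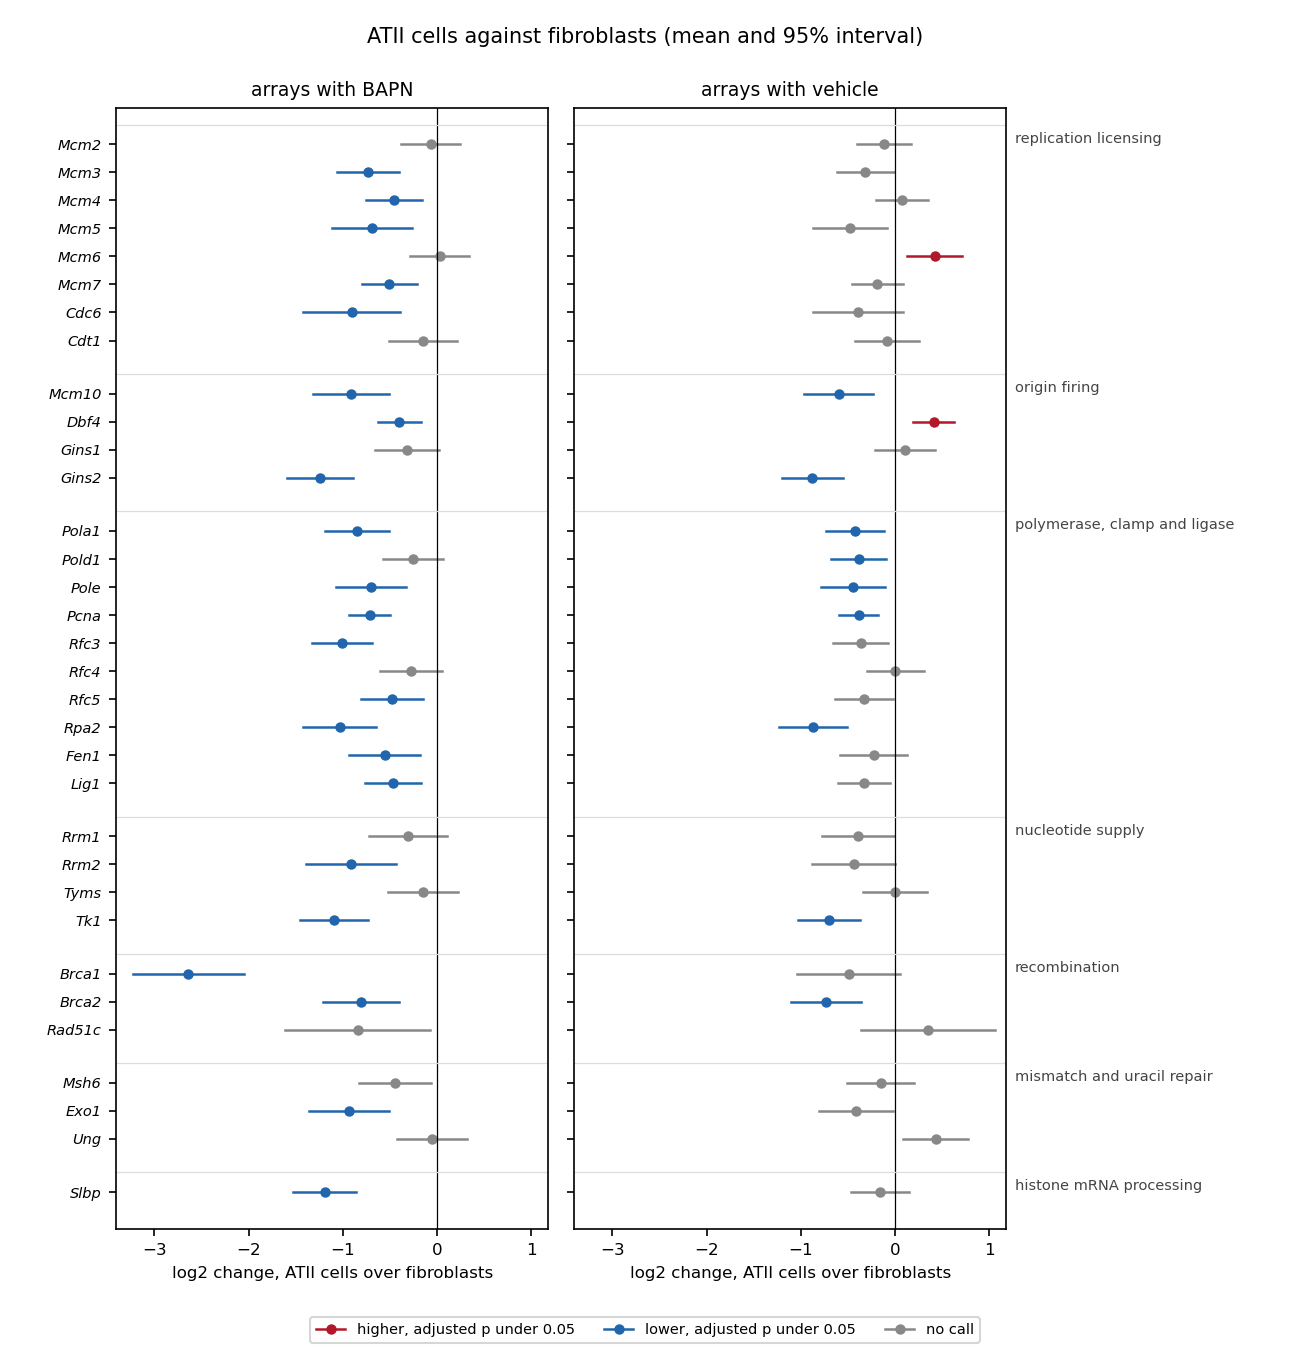
Log2 difference, ATII cells over fibroblasts, for each of the 33 genes, on the arrays with BAPN (left) and with vehicle (right); points are limma estimates, bars are 95% intervals, blue marks genes lower and red genes higher at an adjusted p under 0.05. Left of 0 lie 32 genes with BAPN and 26 with vehicle; the Brca1 interval with BAPN rests on ATII values not well above background.

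The same comparison on the arrays with BAPN uses other arrays than the one above, with the spread estimated over all 15. Here 22 of the 33 genes were lower in ATII cells and 0 were higher, where 17.2% of all 38851 probes tested were lower and 13.8% higher. The median log2 difference of the genes was -0.69, with 32 below 0, against -0.01 over all probes tested. Over the 13039 probes with an average level above 0 the median was -0.03, with 2666 lower and 2097 higher. Of the 9 genes lower with vehicle 8 were lower again, which is also 8 of the 22: Brca2, Gins2, Mcm10, Pcna, Pola1, Pole, Rpa2 and Tk1. Pold1 did not pass (log2 difference -0.26, adjusted p = 0.214).

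Gins2 read 1.18, 1.10, 0.99 and 1.12 on the ATII BAPN arrays, against 2.29, 2.35 and 2.37 on the fibroblast BAPN arrays. These groups lie more than 1 log2 unit apart, and the gene was 2.37-fold lower (log2 difference -1.24, SE 0.16, adjusted p = 5.69e-05). Tk1 was at 2.32, 2.02, 2.10 and 2.26 in ATII cells and at 3.50, 3.06 and 3.26 in fibroblasts, 2.14-fold lower (adjusted p = 0.000208). Pcna was at 4.27, 4.15, 4.06 and 4.27 in ATII cells and at 4.88, 4.97 and 4.86 in fibroblasts, 1.64-fold lower (adjusted p = 0.000132). None of the 3 genes overlapped between the cell types. Rpa2 was 2.05-fold, Mcm10 1.88-fold, Pola1 1.80-fold, Brca2 1.75-fold and Pole 1.63-fold lower. The dimmer Pole probe that was tested gave a log2 difference of -0.17 (adjusted p = 0.555). The second Tk1 probe gave -1.18 (adjusted p = 4.51e-05) and the third, near background, -0.05 (adjusted p = 0.955).

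Slbp, which binds the stem-loop of histone mRNAs and is needed to make histones for new chromatin, passed with BAPN on both of its probes. The brighter probe read 0.05, 0.25, -0.03 and 0.08 on ATII BAPN arrays and 1.25, 1.59 and 1.01 on fibroblast BAPN arrays. The dimmer read -1.13, -0.64, -1.33 and -0.75 in ATII cells and 0.47, 0.47 and 0.19 in fibroblasts. They gave log2 differences of -1.19 (adjusted p = 5.75e-05) and -1.34 (adjusted p = 8.3e-05), against -0.16 and -0.36 with vehicle (adjusted p = 0.452 and 0.124).

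Brca1, a ubiquitin ligase subunit of recombination repair, was dim on all arrays. On the ATII BAPN arrays it was not well above background (-6.29, -7.34, -6.00 and -6.18), while on the fibroblast BAPN arrays it read -3.94, -3.47 and -4.03. Against the lowest signals that counted as above background, it was at least 3.18-fold lower in ATII cells (adjusted p of the fit 7.25e-06). Brca1 entered this test through the fibroblast arrays alone, so its call, 1 of the 22, is set in part by the filter; with probes above background on every array compared, 21 of 32 genes were lower. The fitted difference was -2.64 by the main background step and -0.56 after normexp. Exo1, an exonuclease of mismatch repair and end resection, was 1.91-fold lower (adjusted p = 0.00259). Msh6, the mismatch sensor, and Ung, which removes uracil from DNA, did not pass (log2 differences -0.44 and -0.05, adjusted p = 0.0741 and 0.867).

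Rfc3, a subunit of the clamp loader, read -0.74, -1.11, -1.31 and -1.001 on ATII BAPN arrays and -0.25, 0.03 and 0.12 on fibroblast BAPN arrays. Its log2 difference was -1.01 (adjusted p = 0.00014), that of its partner Rfc5 -0.48 (adjusted p = 0.0289) and that of Rfc4 -0.28 (adjusted p = 0.193). The dimmer Rfc4 probe gave -0.58 (adjusted p = 0.126). Among the licensing genes, Cdc6 (1.87-fold, with both probes called), Mcm3 (1.67-fold, both probes), Mcm5 (1.62-fold), Mcm7 (1.42-fold) and Mcm4 (1.38-fold) were lower. Mcm2, Mcm6 and Cdt1 did not pass, with log2 differences of -0.07, 0.03 and -0.15. Of the nucleotide supply genes Rrm2, the S phase subunit of ribonucleotide reductase, was 1.89-fold lower (adjusted p = 0.00613), and Rrm1, its partner, and Tyms did not pass (-0.31 and -0.15). Fen1 and Lig1, which trim and seal the lagging strand, were 1.47-fold and 1.38-fold lower.

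Dbf4 had the other sign with BAPN than with vehicle: it was lower in ATII cells (0.10, 0.21, 0.21 and 0.35, against 0.57, 0.74 and 0.54 in fibroblasts), without overlap and by 1.32-fold (adjusted p = 0.0116). The median log2 difference per role with BAPN lay between -0.44 for mismatch and uracil repair and -0.84 for recombination, apart from the single gene Slbp. Without any 1 of fibroblast BAPN replicates 1, 2 or 4, Brca1 had too few arrays above background and was not tested. Among the genes still tested, leaving out 1 array ended 6 of the 22 calls. These were Fen1 and Rfc5 (each without fibroblast BAPN replicates 2 or 4 or ATII BAPN replicates 3 or 4), Lig1 (fibroblast BAPN 2 or 4, ATII BAPN 3), Mcm4 (fibroblast BAPN 2, ATII BAPN 3), Mcm5 (fibroblast BAPN 4) and Dbf4 (fibroblast BAPN 2), with adjusted p between 0.0519 and 0.109.

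The arrays lay on 2 slides that each held all 4 groups, but slide 1 held 1 fibroblast BAPN array (replicate 1) and slide 2 held 1 ATII BAPN array (replicate 4). Each lone array is assumed to vary like the other groups in a fit on its slide. With vehicle, 25 of 33 genes were below 0 on slide 1 alone and 27 on slide 2 alone. As lower passed 2 on slide 1, where 4669 of 35910 probes did, and 3 on slide 2, where 3766 of 35989 did, so neither count is above that of all probes. With BAPN, 29 of 32 genes tested were below 0 on slide 1 and 30 of 32 on slide 2. Of these 10 passed on slide 1, where 5074 of 36130 probes did, and 4 on slide 2, where 1410 of 34132 did. With a slide term in the fit the counts were 9 lower and 3 higher with vehicle and 22 lower with BAPN.

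Genes of the same pathways that are not among the 33 were counted in lists, to be read against the shares of all probes above (18.8% lower and 14.7% higher with vehicle, 17.2% and 13.8% with BAPN). Of 16 origin licensing and helicase genes, 3 were lower in ATII cells with vehicle, a share near that of all probes, and 6 were lower and 1 higher with BAPN (median log2 differences -0.06 and -0.33). Orc1, a subunit of the complex that marks origins, had log2 differences of -0.88 with vehicle and -0.87 with BAPN, and Cdc45, part of the active helicase, one of -0.80 with BAPN. Of 26 polymerase, clamp and fork genes, 11 were lower and 3 higher in ATII cells with vehicle, and 18 lower and 1 higher with BAPN (median log2 differences -0.35 and -0.79). Prim2, a primase subunit, was 2.04-fold lower with vehicle (adjusted p = 1.85e-05) and 2.45-fold lower with BAPN. Of 34 recombination and Fanconi genes, 12 were lower and 2 higher with vehicle, and 18 lower and 1 higher with BAPN. Rad51ap1 was 2.08-fold and 3.18-fold lower, whereas Rbbp8, which starts end resection, was 1.68-fold higher with vehicle and 1.30-fold higher with BAPN. Of 13 nucleotide supply genes, 3 were lower and 3 higher with vehicle and 7 were lower with BAPN.

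Not all repair genes followed this direction. Of 21 mismatch and base excision repair genes, 9 were higher and 1 lower in ATII cells with vehicle, and 7 higher and 2 lower with BAPN. Polb, the polymerase of base excision repair, was 2.26-fold higher with vehicle (adjusted p = 1.94e-06), and Tdg, a thymine DNA glycosylase, was 2.09-fold higher with vehicle and 1.92-fold higher with BAPN. Neil3, another glycosylase, was 2.03-fold and 2.70-fold lower. Of 20 end joining and nucleotide excision repair genes, 5 were higher and 2 lower with vehicle, and 5 higher and 4 lower with BAPN. Their median log2 differences were 0.18 and 0.04, with 13 and 12 of the 20 above 0. The 4 lower with BAPN are a share near that of all probes. Xpc, a damage sensor, was 1.80-fold and 1.77-fold higher.

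The regulators of the G1 to S step were counted as well. Of 13 E2F and Rb family genes, 5 were lower and 1 higher in ATII cells with vehicle and 8 were lower with BAPN. The smallest adjusted p were those of E2f6, a repressor of this family (2.95-fold and 3.30-fold lower), and Rb1 (1.62-fold and 1.72-fold lower). Of 23 G1/S cyclin and checkpoint genes tested, 6 were lower and 4 higher with vehicle and 10 lower and 3 higher with BAPN. Ccnd2 was 2.55-fold and 2.82-fold lower and Ccne1 2.51-fold and 3.05-fold lower. Of 17 mitosis genes tested, 2 were lower with vehicle (Nusap1 and Kif11) and 7 with BAPN, with medians of -0.03 and -0.40.

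The genes were also counted by whether an E2F form lay in the promoter window. Of the 13 genes with a form, 3 were lower and 1 higher with vehicle (median log2 difference -0.33), and of the 15 with a window and no form, 4 were lower and 1 higher (median -0.33). With BAPN 8 of 13 and 10 of 15 were lower, with medians of -0.69 and -0.56. These are counts of chosen genes, with no test.

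BAPN against vehicle in fibroblasts gave 4 higher genes and 0 lower genes among the 33 (limma, adjusted p under 0.05), where 1.91% of all 38750 probes tested were higher and 10.6% lower. The 4 genes were Rad51c, Dbf4, Ung and Slbp. The median log2 change of the 33 genes was 0.24, with 29 above 0, and that of all probes tested 0.00. Of the 13039 probes brighter than the 75th percentile, as most of these are, 539 were higher and 279 lower. Their median was 0.06, with 60.1% above 0. After quantile normalization 232 of them were higher and 438 lower, with a median of -0.01 and 49.1% above 0. The median of the 33 genes was then 0.19.

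Rad51c, a gene of recombination repair, read 5.97, 3.93 and 4.34 on the fibroblast BAPN arrays, against 3.62, 3.07, 3.53 and 3.04 on the fibroblast vehicle arrays. All BAPN values lay above all vehicle values, but replicate 1 with BAPN stood well above the other BAPN arrays. The mean was 2.70-fold higher with BAPN (log2 change 1.43, SE 0.36, adjusted p = 0.0217). Without BAPN replicate 1 the change was 0.82 (adjusted p = 0.0165), and without vehicle replicate 2 or vehicle replicate 4 the adjusted p was 0.0602 and 0.0596. Its probe is annotated to an Ensembl transcript and not to a RefSeq mRNA.

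Dbf4 read 0.57, 0.74 and 0.54 with BAPN, against 0.18, -0.0038, 0.03 and -0.07 with vehicle. Every BAPN value was above every vehicle value, by 1.498-fold on average (log2 change 0.58, SE 0.11, adjusted p = 0.0079), and the call held when any single array was left out. Ung read 4.66, 3.83 and 4.07 with BAPN, against 3.77, 3.48, 3.53 and 3.50 with vehicle. It was 1.53-fold higher (log2 change 0.61, SE 0.17, adjusted p = 0.0346), and 0.38 without BAPN replicate 1 (adjusted p = 0.114); it also lost the call without BAPN replicate 4 or without vehicle replicates 2, 3 or 4 (0.0625 to 0.0856). As for Rad51c, replicate 1 was the highest of the BAPN arrays.

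The Slbp probes did not give the same call. The brighter read 1.25, 1.59 and 1.01 with BAPN and 0.97, 0.75, 0.71 and 0.45 with vehicle, a log2 change of 0.56 (SE 0.16, adjusted p = 0.0324) without overlap. The dimmer read 0.47, 0.47 and 0.19 with BAPN and 0.26, 0.38, -0.08 and -0.17 with vehicle, a log2 change of 0.28 (adjusted p = 0.364) with overlapping groups. The call of the brighter probe was lost without BAPN replicates 1 or 2 or vehicle replicates 2, 3 or 4 (adjusted p 0.0593 to 0.141).

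On slide 1, whose only fibroblast BAPN array is replicate 1, the changes were 2.39 for Rad51c, 0.46 for Dbf4, 1.01 for Ung and 0.41 for Slbp, and on slide 2 alone 1.09, 0.68, 0.46 and 0.70 in the same order. Of the 33 probes 18 lie in the right part of the array, beyond column 82. When a smooth trend over the columns and rows of each array was removed, Rad51c and Dbf4 remained called (adjusted p = 0.0442 and 0.0171), while Slbp and Ung were not (0.0551 and 0.0663). Quantile normalization left the same calls (Rad51c 0.0364, Dbf4 0.0143, Slbp 0.058, Ung 0.0748), and with both steps together Dbf4 was still called (0.0214), Rad51c was not (0.0648) and Brca1 was (0.0322).

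**Figure D3:**
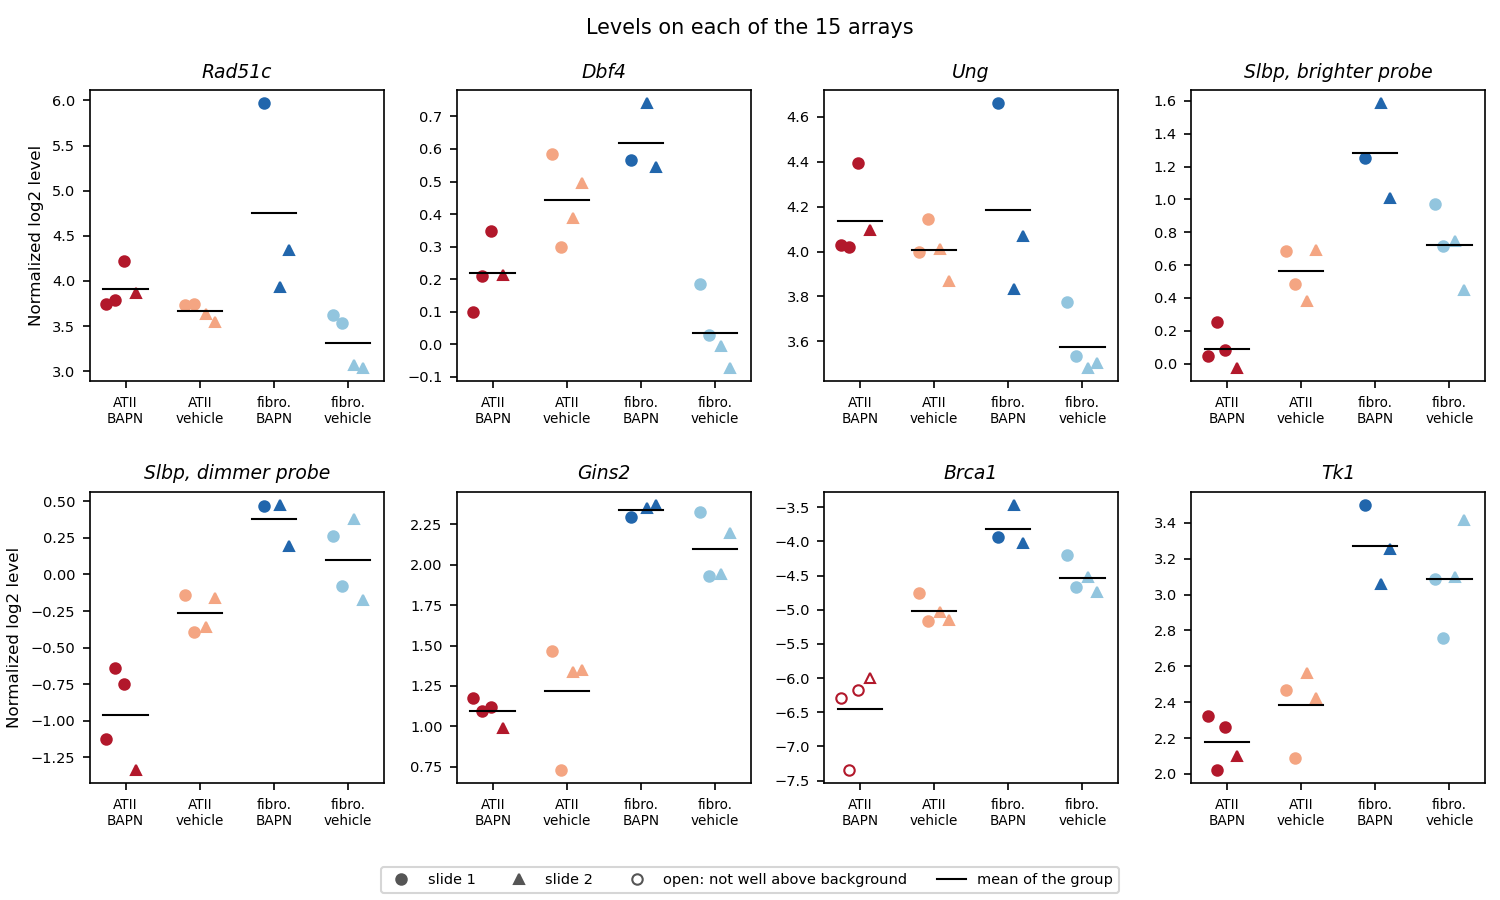
Normalized log2 level on every array for 7 of the genes, with both probes of Slbp; circles are slide 1, triangles slide 2, open symbols are not well above background, and black lines are group means. Dbf4 is higher with BAPN than with vehicle on every fibroblast array, Rad51c and Ung have their highest fibroblast value on 1 slide 1 array with BAPN, and Gins2 and Tk1 split by cell type.

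Among the genes without a call in fibroblasts, Mcm4, Mcm6 and Mcm3 came nearest, with log2 changes of 0.39, 0.39 and 0.40 and adjusted p of 0.0844, 0.0991 and 0.104. Their BAPN and vehicle arrays did not overlap, but the share of all probes that part in this way was not counted. At the other end Pold1, Rrm1, Mcm5 and Mcm2 were below 0 (log2 changes -0.17, -0.16, -0.05 and -0.04). For 31 of the 33 genes the 95% interval of the change lay inside a 2-fold range in either direction, against 63.4% of all probes tested. Outside were Rad51c (0.66 to 2.21) and Brca1 (0.13 to 1.31, adjusted p = 0.107).

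Pathway genes outside the 33 were counted in fibroblasts too, where 1.91% of all probes were higher with BAPN and 10.6% lower. Of 26 polymerase, clamp and fork genes 3 were higher and 0 lower, including Dscc1, of an alternative clamp loader, 1.59-fold (adjusted p = 0.00997), and Rpa3 1.40-fold (adjusted p = 0.014). Tfdp1, the dimer partner of E2F factors, was 1.85-fold higher (adjusted p = 0.00903) as the only one of 13 E2F and Rb family genes called. Of 23 G1/S cyclin and checkpoint genes tested 1 was higher and 1 lower, with 18 above 0. Rad1 was 1.39-fold higher (adjusted p = 0.0284, and 0.104 after removal of the trend over array position). Chek1, the S phase checkpoint kinase, was 2.21-fold lower (adjusted p = 0.012), at levels of -3.34 with BAPN and -2.20 with vehicle. Of 34 recombination and Fanconi genes 2 were higher and 0 lower. Among them Palb2, the partner of BRCA2, was 1.63-fold higher (adjusted p = 0.0275, and 0.0681 after removal of the trend over array position). Orc3 (log2 change 0.37, adjusted p = 0.0471, and 0.271 with that trend removed) was the 1 gene called of 16 origin licensing and helicase genes, and Dtymk, the thymidylate kinase (0.56, adjusted p = 0.0171), the 1 called of 13 nucleotide supply genes. Of 20 end joining and nucleotide excision repair genes 3 were higher, among them Polq (0.53) and Xrcc5 (0.40, adjusted p = 0.0321, and 0.117 with that trend removed), and of 21 mismatch and base excision repair genes 0 were called. Of 17 mitosis genes 0 were called, with 16 above 0 and a median of 0.22. Of 13 macrophage and leukocyte markers 1 was lower (Cd3e).

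In ATII cells, BAPN against vehicle gave 0 higher and 0 lower genes among the 33, as among all 38581 probes tested, of which 0% passed in either direction. At an unadjusted p under 0.05 in limma 4 of the 33 genes and 4061 of all probes would have passed. The median log2 change of the 33 genes was -0.10, with 25 below 0, against -0.01 over all probes. The interval lay inside a 2-fold range for 32 of the 33, with Brca1 the exception.

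**Figure D4:**
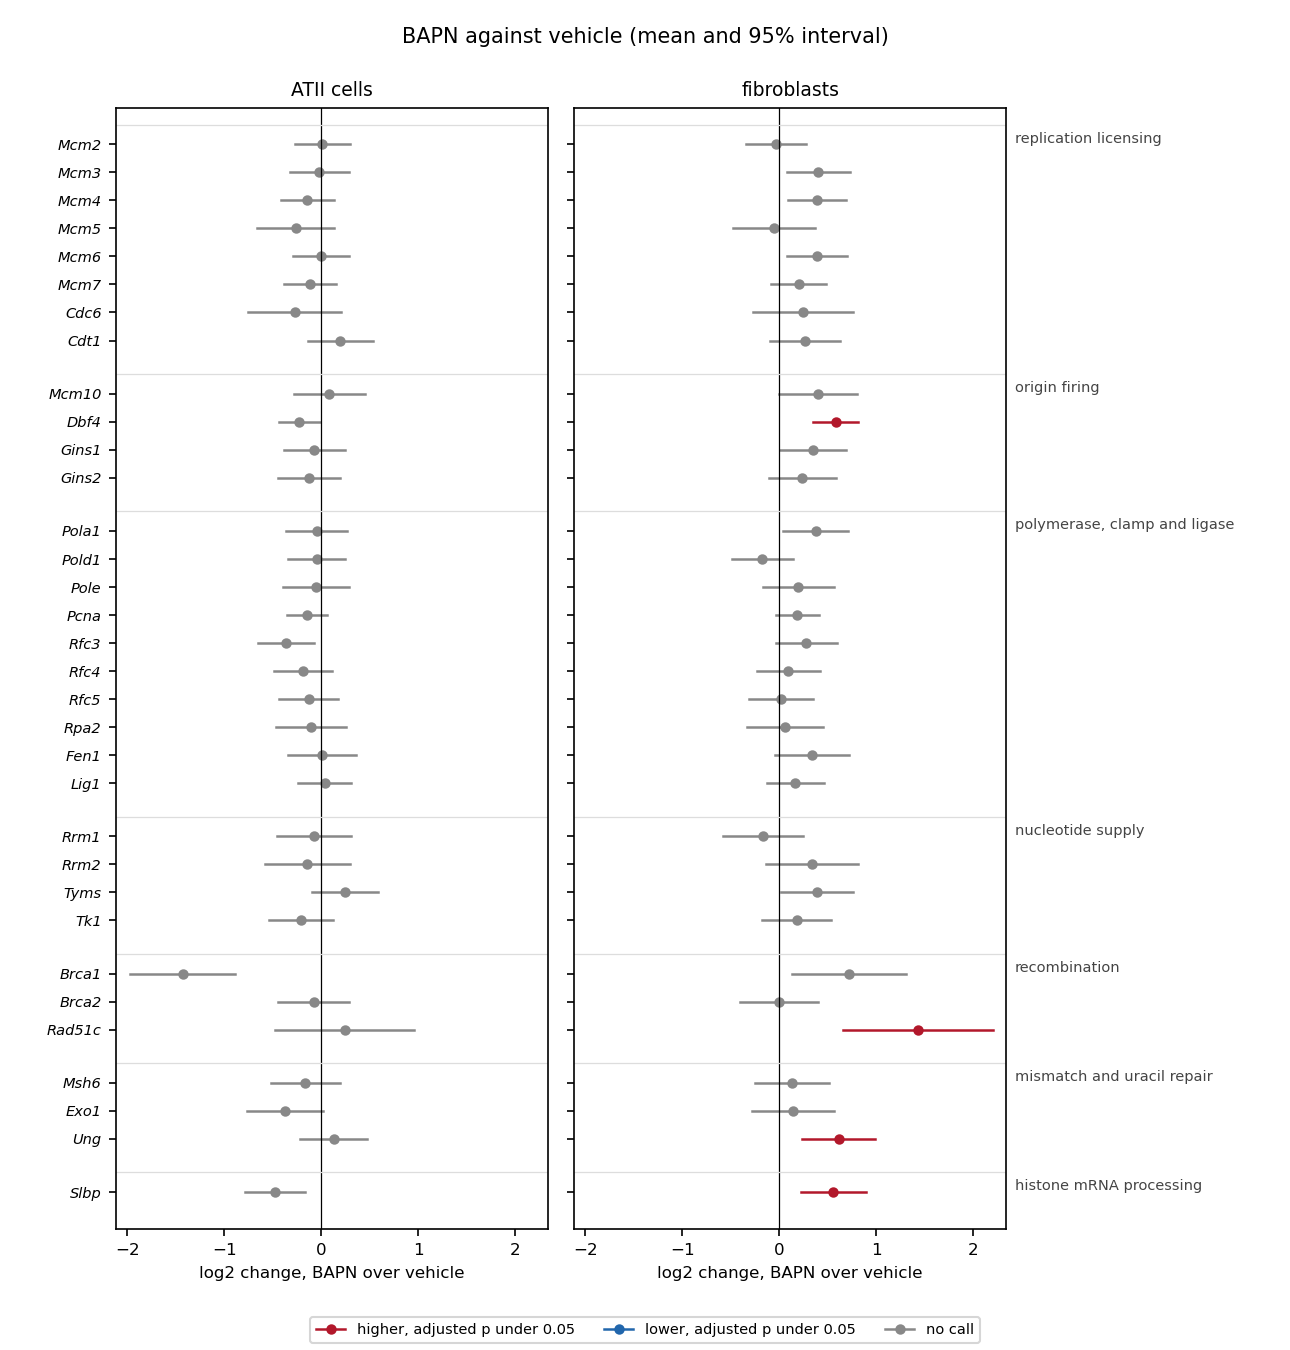
Log2 change with BAPN over vehicle for each of the 33 genes, in ATII cells (left) and in fibroblasts (right); points are limma estimates, bars are 95% intervals, and red marks genes higher at an adjusted p under 0.05. The 4 red genes are Dbf4, Rad51c, Ung and Slbp in fibroblasts; no gene is called in ATII cells, where the Brca1 value rests on BAPN arrays not well above background.

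Slbp was not called in ATII cells on either probe, although its values parted. Its brighter probe read 0.05, 0.25, -0.03 and 0.08 with BAPN, against 0.69, 0.38, 0.49 and 0.69 with vehicle, and the dimmer probe -1.13, -0.64, -1.33 and -0.75 with BAPN, against -0.14, -0.36, -0.39 and -0.16 with vehicle. The groups did not overlap on either probe, but the share of all probes that part in this way was not counted. The log2 changes of -0.47 and -0.70 had an adjusted p of 0.466 each. Brca1 was not well above background with BAPN and read -4.76, -5.04, -5.16 and -5.14 with vehicle, at least 1.37-fold lower with BAPN (adjusted p = 0.452), having entered the test through the vehicle arrays. The next largest changes were those of Exo1 (-0.37) and Rfc3 (-0.36).

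The change with BAPN in ATII cells minus that in fibroblasts was also tested, and again 0 of the 33 genes and 0% of the 41198 probes tested passed in either direction. At an unadjusted p under 0.05 in limma 7 of the 33 and 5836 of all probes would have passed. The median of the 33 was -0.33, with 30 below 0, against 0.08 over all probes. Over the 13039 probes with an average level above 0 the median was -0.05. Dbf4 had a difference of -0.81 (95% interval -1.13 to -0.49) and the brighter Slbp probe one of -1.03 (-1.49 to -0.57), both with an adjusted p of 0.167. The counts of 22 lower genes with BAPN and 9 with vehicle were therefore not shown, for any of the 33, to differ between the exposures. The comparisons of cell types and those of BAPN with vehicle use the same 15 arrays.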

How the data were processed

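RNA from 15 samples was hybridised to 1-colour Agilent arrays, 1 per sample, and the processed intensity of each spot was deposited by the authors; per the file headers it came from Agilent Feature Extraction 10.7.3.1 on a probe design placed on build mm9. The authors also deposited a table of log2 values that, from the values, is quantile normalized, with a median of 5.96 in each column; its scale is log2, it is not centred by gene, and no step behind it is given in the sources used here.

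From the deposited intensity, log2 values were taken and the 75th percentile over spots other than controls was subtracted per array. Spots flagged as outliers were dropped and spots of a probe averaged. A probe entered a test when 3 or more arrays in the compared groups had it well above background. A linear model with 1 mean for each group was fitted across all 15 arrays by limma 3.58.1 (lmFit, eBayes; R 4.3.3), leaving 11 residual degrees of freedom, and p-values were adjusted by Benjamini-Hochberg over all probes tested, with a threshold of 0.05, two-sided. The fit was tested on simulated data. The number of arrays limits the precision. Overlap between groups is described for single genes, and its share over all probes was not counted.

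All 33 genes are named; of other pathway genes, at most 2 per list, comparison and direction, those with the smallest adjusted p, were eligible to be named. The members and lists were chosen with earlier results of these data known. Number 3 of the fibroblast BAPN samples is not analysed here. Alternatives were another background step, quantile normalization, the deposited table, other filters, slide and replicate terms, single slides, removal of a trend over array position, other probe rules and leaving out each array. Quantile normalization and the slide term, each with position removed, were added after seeing the data.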

Additional observations from a re-analysis of the deposited data

Results flagged for a closer look

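Mcm6, a subunit of the MCM2-7 helicase, had a level of 5.93 in ATII BAPN replicate 1, while the other ATII BAPN arrays lay between 5.50 and 5.54. Its gap to the nearest of them was 0.92 of the range of the group, above Dixon's critical value for 4 samples. It was the only such sample in 99 groups of 4 tested over the 33 genes. Chance gives about 1 in 20 groups, so 1 in 99 is no more than chance gives.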

How the results depend on the processing

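Every called gene kept its direction under all 31 alternatives that gave it a value, 11 with vehicle, 22 with BAPN and 4 in fibroblasts, and no result turned round. Past the threshold in all of them were 1 of 11 (Gins2), 4 of 22 and 0 of 4. The 4 were Gins2, Pcna and Tk1, and Brca1, which 25 of the 31 alternatives gave a value and which passed the filter through fibroblasts alone. The 2 genes higher in ATII cells with vehicle became 1 with normexp, with the replicate block and with the replicate block and position removed, and 0 on slide 1 or slide 2 alone. The 9 lower became 2 on slide 1 and 3 on slide 2, and the 22 lower with BAPN became 10 and 4, where slide 1 holds 1 fibroblast BAPN array and slide 2 holds 1 ATII BAPN array. With the replicate block the 22 became 15, Mcm4, Mcm5, Mcm7, Cdc6, Dbf4, Fen1 and Rfc5 losing their call, and with position removed as well 16. That block has 1 term per number, shared by both cell types. ATII BAPN replicate 5 is alone in its number, so it adds nothing to the differences fitted with the block. The 4 genes higher with BAPN in fibroblasts became 2 with quantile normalization, the deposited table, no filter, position removed, quantile normalization with position removed, the replicate block and slide 2 alone, 1 on slide 1 alone and with only the arrays compared, and 0 with the replicate block and position removed. Leaving out 1 array gave 1 to 3 higher and 6 to 11 lower genes with vehicle, 17 to 23 lower with BAPN, and 1 to 5 higher in fibroblasts, the last being 1 without fibroblast vehicle replicate 2 and 2 without fibroblast vehicle replicates 3 or 4 or fibroblast BAPN replicate 1. The difference of BAPN effects gave 0 to 2 lower, with 2 without ATII BAPN replicate 4. Same-numbered BAPN and vehicle arrays lay on the same slide. Their deviations from the group means correlated at -0.027, 0.288 and 0.052 in fibroblasts and 0.409, -0.014 and 0.002 in ATII cells. For arrays of other numbers on the same slide the correlations ran from -0.388 to -0.322 in fibroblasts and from -0.249 to -0.143 in ATII cells. On different slides they ran from -0.087 to 0.28 and from -0.245 to 0.318. The main fit did not use the numbers as pairs, and whether they mark pairs was not settled. Correlations between ATII and fibroblast arrays of 1 number were not taken. Across all probes the fibroblast comparison had 742 higher and 4104 lower calls, and 121 and 1677 with the replicate block. The cause of these changes was not tested. Signal over background limits Brca1.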
